A study of Homo sapiens with 2 samples.

Results

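The enzymes that write, maintain and remove DNA methylation were examined by RNA sequencing in BT549, an established human line from a breast tumour that the labels call triple-negative. They comprise 8 genes chosen by symbol from the 43337 genes of the deposited table: the methyltransferases DNMT1, DNMT3A and DNMT3B, the readers UHRF1 and UHRF2, and the oxidases TET1, TET2 and TET3. There were 2 libraries. The cells of 1 library carried the genotype label SIK1_WT and those of the other SIK1_S435D, taken from the series' design text as overexpression of the kinase SIK1 in its wild-type form or with aspartate in place of a serine, an exchange often used to imitate phosphorylation. Both groups therefore share an overexpressed SIK1. The labels do not state the promoter of the construct, the number of clones or the culture conditions, and cells without a construct were not analysed here. With 1 library per group no difference has a replicate check and no test was run. All intervals are 95% intervals that cover counting error only.

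Most methyl groups on mammalian DNA sit on cytosines of CpG dinucleotides. DNMT3A and DNMT3B place them on unmodified DNA. After replication, UHRF1 binds the half-methylated CpG and ubiquitylates histone H3, which recruits DNMT1 to restore the mark on the new strand, and both are known as genes of S phase. TET enzymes oxidise methylated cytosine in a reaction that needs iron and alpha-ketoglutarate, and the oxidised bases are lost by dilution or are cut out by the glycosylase TDG and replaced by base excision repair. In cancers, loss of methylation over much of the genome often occurs beside gain at particular promoters.

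DNMT1 and UHRF1 each held a spelling of a short sequence near an annotated start, and none of the other 6 genes held one in the windows searched. The 4 spellings TTTCCCGC, TTTCGCGC, TTTGCCGC and TTTGGCGC are the forms bound by E2F factors, regulators of S-phase genes. They were searched on both strands in RefSeq windows (GRCh38.p14) of 250 bases before and 50 bases from each annotated start. A window was found for each of the 8 members, and 2 of them, DNMT1 and UHRF1, held a match. A match was present for 5.40% of 15843 protein-coding genes with a window, and for 15 of the 25 replication genes listed here that had a window. The replication genes were a chosen list and not a random draw, and the difference between these shares was not tested. The sequences are shown because these 2 genes are the abundant members on which the comparison below turns. Each runs 5′ to 3′ on the gene's strand from 200 bases before the start through the first 20 bases from it, with the match in capitals.
UHRF1, chr19:4909301-4909520, plus strand: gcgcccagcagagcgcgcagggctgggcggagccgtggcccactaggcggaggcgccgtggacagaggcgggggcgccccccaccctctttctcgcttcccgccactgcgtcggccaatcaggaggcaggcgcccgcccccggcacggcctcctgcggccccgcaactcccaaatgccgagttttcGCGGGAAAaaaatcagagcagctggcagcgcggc
UHRF1, chr19:4909944-4910163, plus strand: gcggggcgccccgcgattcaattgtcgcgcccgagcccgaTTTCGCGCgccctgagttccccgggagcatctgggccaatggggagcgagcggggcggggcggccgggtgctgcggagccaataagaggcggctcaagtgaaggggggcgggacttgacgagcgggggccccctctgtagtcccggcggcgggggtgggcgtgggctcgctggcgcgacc
DNMT1, chr19:10194934-10195153, minus strand: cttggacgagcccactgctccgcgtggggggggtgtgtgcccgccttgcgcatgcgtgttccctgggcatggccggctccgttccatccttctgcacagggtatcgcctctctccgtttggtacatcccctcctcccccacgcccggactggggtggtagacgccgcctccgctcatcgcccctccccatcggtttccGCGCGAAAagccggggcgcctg
In DNMT1 the match, TTTCGCGC, lay across the start, at bases -2 to 6. UHRF1 had a different spelling, TTTCCCGC, at bases -14 to -7 of the start at 4909501. It had TTTCGCGC farther off, at bases -160 to -153 of the start at 4910144. DNMT1 and the first UHRF1 window held the match on the opposite strand, so the capitals there show its reverse complement. The window of DNMT1 held 30 CpG dinucleotides and those of UHRF1 36, 40 and 46, against a median of 21 over windows of protein-coding genes. Windows without a match were as rich in places, with up to 46 in DNMT3A, 33 and 45 in TET3, 13 and 35 in TET2 and 26 in UHRF2. The TET1 windows held 6 to 11, and the only DNMT3B window held 3. That window's start, 32779852, lies inside a span that begins at 32762385, so the outer start of DNMT3B was not searched. The starts used for DNMT1 and UHRF1 also lie inside their spans, which begin at 10231286 (minus strand) and 4903080. A match describes letters only, and methylation and factor binding were not measured.

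The libraries held 22366506 reads (WT) and 23520828 reads (S435D) assigned to genes. In RPKM, reads per kilobase of exon per 1000000 assigned reads, SIK1 stood at 380 (WT) and 422 (S435D). That is a fold of 1.11 (1.09 to 1.12). Gene totals do not tell the overexpressed form from the cell's own. The level of SIK1 and the S435D exchange cannot be told apart in these libraries. Of the receptors that define the triple-negative label, the hormone receptor genes were at or near 0, with 1 read (WT) and 0 reads (S435D) of ESR1 and 0 of PGR in both, while ERBB2 was at 10.6 and 10.05 RPKM. VIM, an intermediate filament of mesenchymal cells whose exons overlap antisense genes, reached 116 and 113 RPKM, while CDH1, the epithelial cadherin, had 0.651 and 0.798 RPKM. Of other markers, the epithelial genes KRT8 and EPCAM were at 45.5 and 47.7 RPKM and at 2.48 and 2.11, and the mesenchymal cadherin CDH2 was at 2.25 and 2.11, so the markers do not all point one way. The leukocyte marker PTPRC and the endothelial marker PECAM1 had no read in either library (a count of 0 allows up to 3). Reads of the mitochondrial chromosome made up 4.32% (WT) and 5.15% (S435D) of all, and their part in the ratios below is covered by a scaling without them.

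The machinery was dominated by the maintenance pair, with little TET transcript. In the WT library the order of levels was UHRF1 at 51.6 RPKM, DNMT1 at 47.9, DNMT3B at 17.7, DNMT3A at 2.87, TET1 at 1.36, TET3 at 1.02, UHRF2 at 0.663 and TET2 at 0.356. Counting intervals of neighbours in that order did not overlap. In the S435D library DNMT1, at 50.6 RPKM, stood above UHRF1, at 45.4, the other 6 genes kept their order, and the intervals of UHRF2 (0.469 to 0.666) and TET2 (0.347 to 0.477) overlapped. The 3 methyltransferases summed to 68.4 RPKM (WT) and 70.1 (S435D), and the 3 TET genes to 2.73 and 2.95. Among protein-coding genes with a read, UHRF1 lay at percentile 94.5 (WT) and 93.9 (S435D) of RPKM and DNMT1 at 94.1 and 94.4, whereas TET2 lay at 22.9 and 24.3. The mean of the libraries reached 1 RPKM, the level taken here as expressed, for 5 of the 8, and TET2, UHRF2 and TET3 (mean 0.974 RPKM) lay below it.

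**Figure D1:**
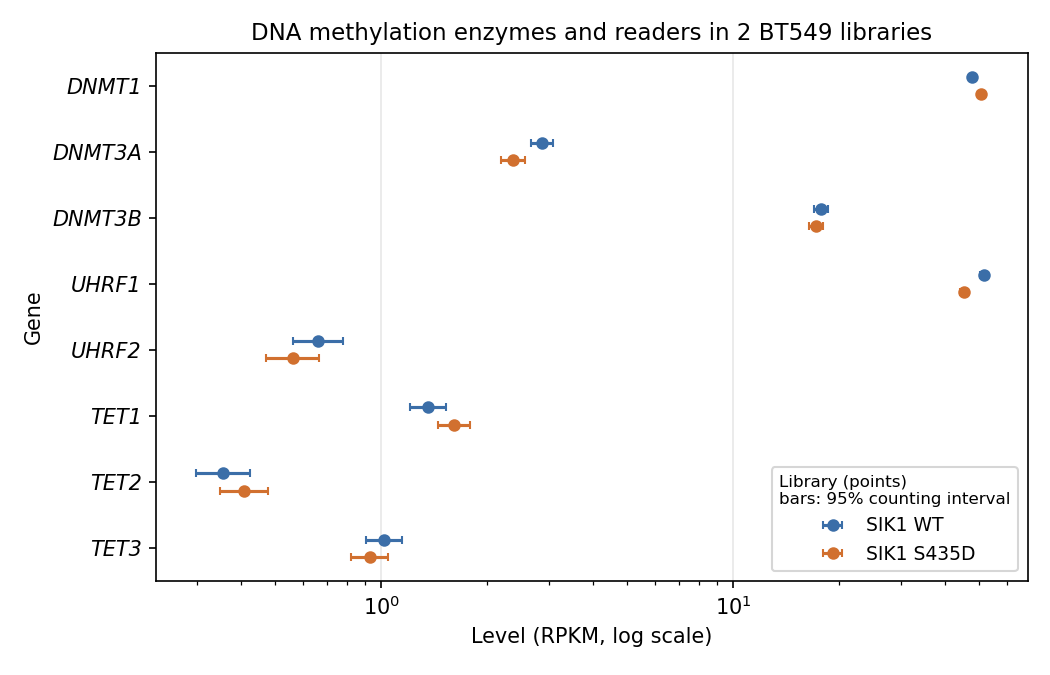
Levels of the 8 genes in RPKM (log axis) in the WT library (blue) and the S435D library (orange), with bars for 95% counting intervals from the reads of each single library. DNMT1 and UHRF1 sit near 50 RPKM, DNMT3B near 17, and the TET genes and UHRF2 at or below 1.61 RPKM.

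The table divides reads by the summed length of all annotated exons, and this length bears on levels between genes. Per length of the longest annotated protein-coding transcript, a setting chosen after seeing the data, DNMT1 came to 86.7 RPKM and UHRF1 to 61.6 in the WT library, so DNMT1 then led in both libraries. The exons of DNMT1 sum to 9796 bases against 5408 in that transcript. UHRF2 (9919 against 3452 bases) moved from 0.663 to 1.90 RPKM, above TET1 and TET3. TET1, with a single protein-coding transcript, kept 1.36 RPKM. The choice of length does not touch the fold of a gene between the libraries.

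No member differed by 2-fold between the libraries (0 of 8), and such a difference was found for 0.0501% of the 9980 expressed protein-coding genes. By direction alone 3 members were higher and 5 lower in the S435D library, where 43.5% of expressed protein-coding genes were higher and 56.5% lower. The counting interval of the fold lay wholly above 1 for 2 members, DNMT1 and TET1, and wholly below 1 for 2, UHRF1 and DNMT3A. Those are 4 of 8 members, where 25.6% of expressed protein-coding genes had an interval without 1, 9.75% above it and 15.9% below. Such intervals narrow as reads rise, DNMT1 and UHRF1 are deep, and no share was computed over genes of like read number. The count is therefore not a result about the members. The median log2 ratio, S435D over WT after 0.5 RPKM was added to each, was -0.067 over the 8 members and -0.019 over expressed genes, whose interquartile range was -0.098 to 0.058. The 3 members below 1 RPKM are outside the expressed genes that give these shares.

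**Figure D2:**
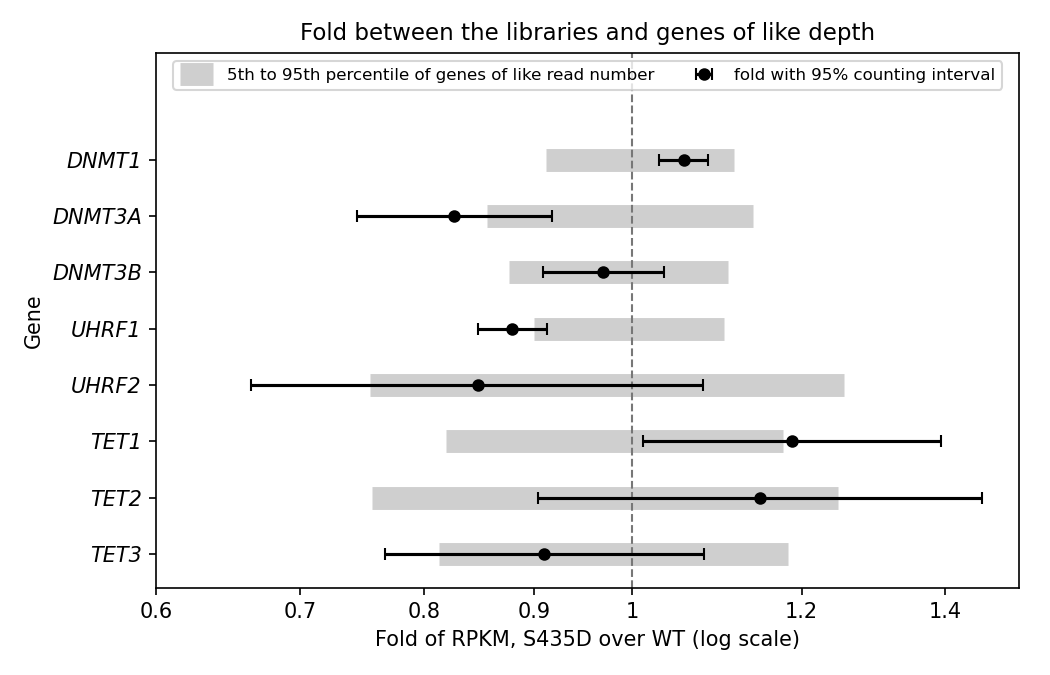
Fold of RPKM, S435D over WT (log axis), for each gene with its 95% counting interval (black), beside the 5th to 95th percentile of the fold among protein-coding genes of like read number (grey). DNMT3A and UHRF1 lie below their grey bars and TET1 lies just above its own; the other 5 lie within theirs.

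DNMT1, the maintenance methyltransferase (ENSG00000130816.15, chromosome 19, 10133345 to 10231286, minus strand, 47 merged exons), had 10485 reads (WT) and 11656 (S435D). These equal 47.9 and 50.6 RPKM, a fold of 1.06 (1.03 to 1.09). The S435D library was thus slightly higher, by a margin that 16% of 325 protein-coding genes of like read number exceeded. Like read number means a sum over both libraries within 1.5-fold of the member's. A stretch of 69 exon bases is shared with S1PR2, a gene with 104 and 77 reads in all, and reads there may count for both.

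UHRF1, the reader of half-methylated CpG and a RING ubiquitin ligase (ENSG00000276043.4, chromosome 19, 4903080 to 4962154, plus strand, 19 merged exons), went the other way. It had 5939 reads (WT) and 5492 (S435D), or 51.6 and 45.4 RPKM, a fold of 0.879 (0.848 to 0.912). Of 548 genes of like read number, 14 had a lower fold (2.55%). No other gene of the table shared its exon bases. Its paralogue UHRF2 (chromosome 9, 6413151 to 6507054, plus strand), a reader that also binds hydroxymethylated cytosine, had 147 and 131 reads, a fold of 0.847 (0.664 to 1.08). That interval contains 1 and also the fold of UHRF1.

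The de novo enzymes differed from each other in level and in ratio. DNMT3B (chromosome 20, 32762385 to 32809356, plus strand), known from the immunodeficiency syndrome caused by its loss and from its high level in pluripotent cells, had 1835 reads (WT) and 1871 (S435D), or 17.7 and 17.2 RPKM. Its fold was 0.970 (0.909 to 1.03). DNMT3A (chromosome 2, 25227855 to 25342590, minus strand), the de novo enzyme often mutated in blood cancers, had 771 reads and 670 reads, or 2.87 and 2.37 RPKM. Its fold was 0.826 (0.744 to 0.918), and 58 of 2485 genes of like read number had a lower one (2.33%). It was the single member past a 1.2-fold rule, which 8.55% of expressed protein-coding genes passed (2.96% higher and 5.59% lower). Under a trimmed mean of log ratios DNMT3A came to 0.845 and TET1, at 1.21, was the single member past that rule instead. The gene level does not tell the isoforms of either enzyme apart, and the cofactor DNMT3L, which has no catalytic activity, had 5 reads (WT) and 1 (S435D). TRDMT1, a relative that methylates transfer RNA, had 83 and 89 reads.

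The TET genes, with UHRF2, rest on the fewest reads. TET1 (chromosome 10, 68560656 to 68694482, plus strand), which carries a CXXC domain that binds CpG-rich DNA, had 282 reads (WT) and 352 (S435D), or 1.36 and 1.61 RPKM. Its fold was 1.19 (1.01 to 1.39), and 113 of 2733 genes of like read number had a higher one (4.13%). TET2 (chromosome 4, 105145875 to 105279816, plus strand), a gene often mutated in myeloid neoplasms, had 131 and 158 reads, a fold of 1.15 (0.904 to 1.46). TET3 (chromosome 2, 73986404 to 74108176, plus strand), the oxidase of the zygote's paternal genome in mice, had 280 and 268 reads, a fold of 0.910 (0.767 to 1.08). The intervals of TET2 and TET3 contain 1, so their folds do not stand apart from 1 beyond counting error. TET1 made up 49.7% (WT) and 54.7% (S435D) of the summed TET RPKM.

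Ratios between members were then compared, since the ratio of 2 genes within a library does not depend on how libraries are scaled to each other. Of 9 pairs, 5 had a between-library ratio whose counting interval left out 1. Single genes did so in 25.6% of cases and a pair combines 2 folds; no share over other pairs was computed, so the count is not a result about the members. UHRF1 to DNMT1 was 1.08 with WT SIK1 (1.04 to 1.11) and 0.897 with S435D (0.869 to 0.926), a ratio of ratios of 0.832 (0.795 to 0.871). Per longest coding transcript the same pair stood at 0.711 and 0.591, below 1 in both, with the ratio of ratios as before. DNMT1 to DNMT3A was 16.7 (WT) and 21.3 (S435D), 1.28 times as high (1.15 to 1.43). DNMT3B to DNMT3A was 6.18 and 7.25 (1.17, 1.04 to 1.33), and DNMT1 to DNMT3B was 2.70 and 2.94 (1.09, 1.02 to 1.17). Among the oxidases, TET3 to TET1 was 0.752 and 0.576 (0.767, 0.606 to 0.971), while TET2 to TET1 was 0.262 and 0.253 (0.966, 0.724 to 1.29). UHRF1 to UHRF2 was 77.9 and 80.8, and the interval of the ratio of ratios, 0.812 to 1.33, contains 1. Pairs that share a gene are not independent of each other.

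**Figure D3:**
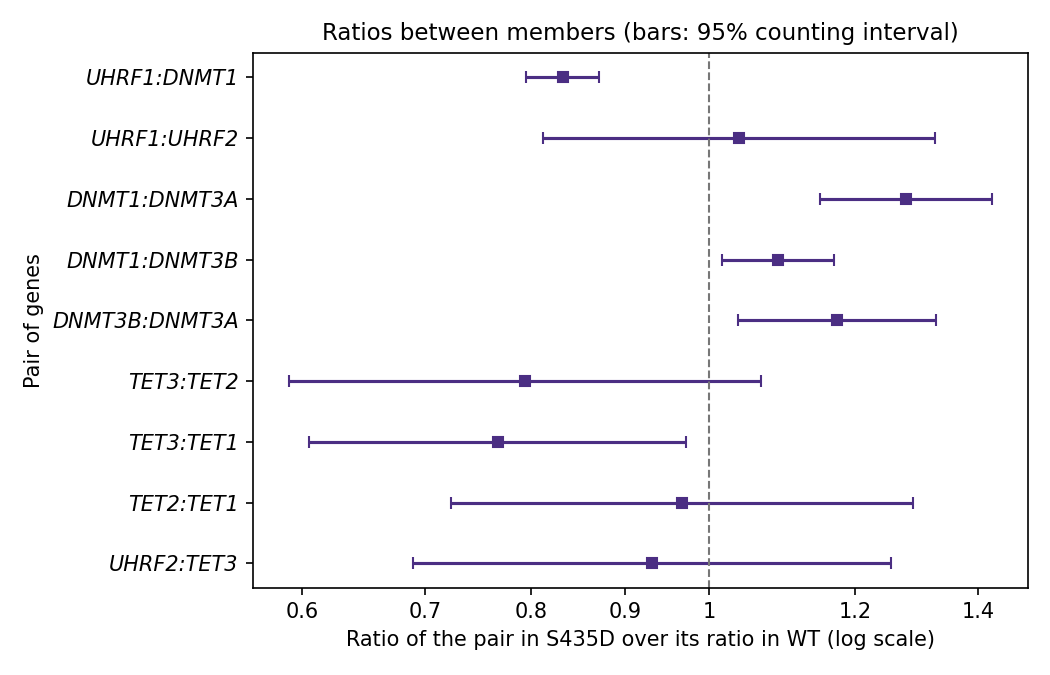
Ratio of each pair of genes in the S435D library divided by its ratio in the WT library (log axis), with 95% counting intervals; the dashed line marks equal ratios. UHRF1:DNMT1 at 0.832 has the narrowest interval, and the intervals of 4 of the 9 pairs contain 1.

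Proteins that act with DNMT1 and UHRF1 behind the replication fork had folds of 0.902 to 1.11. Of 17 maintenance partners, all expressed, 7 were higher and 10 lower in the S435D library, the interval lay below 1 for 4 and above 1 for 0, and the median log2 ratio was -0.034. Among all expressed protein-coding genes 56.5% were lower, 15.9% had an interval below 1 and 9.75% one above it. The differences of the partners from those shares were not tested. Some partners are deep (HDAC1 had 8454 reads in WT), and no share was computed over genes of like read number. The partners' counts are therefore not a result about them. PCLAF, listed as KIAA0101, a PCNA-associated protein that UHRF1 ubiquitylates, had 5.80 RPKM (WT) and 5.23 (S435D), and a clone-named gene shares 28.8% of its exon bases. HDAC1, a histone deacetylase that binds both proteins, had 95.4 and 87.7 RPKM (fold 0.920, 0.892 to 0.948). SUV39H1, a histone H3 lysine methyltransferase of heterochromatin, had 6.77 and 7.52 RPKM, and TRIM28, a corepressor recruited by zinc finger proteins, 56.1 and 58.2 RPKM. A clone-named gene shares 20.3% of the exon bases of SUV39H1. Of 29 replication genes, 8 were higher and 21 lower, with an interval above 1 for 2, an interval below 1 for 10, and a median log2 ratio of -0.048. Those below 1, 10 of 29, are a larger share than the 15.9% of all expressed protein-coding genes, a difference that was not tested. Counting intervals narrow as reads rise, several of these genes are deep (MCM3 had 14286 reads in WT), and no share was computed over genes of like read number. The larger share is therefore not a result about replication genes. GINS2, of the replicative helicase, had a fold of 0.866 (0.783 to 0.958) and MCM6, of the same helicase, 0.880 (0.831 to 0.933). CDT1, which licenses origins, had 1.11 (1.05 to 1.18), and CCNE2, a cyclin whose exons overlap INTS8, 1.11 (0.914 to 1.35).

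Among methyl-CpG binding proteins and relatives 7 of 8 were expressed, 2 higher and 5 lower, and the median log2 ratio was -0.042. It turned to 0.034 among genes averaging 5 RPKM or more. MBD1, which binds methylated promoters, had 793 and 697 reads (0.836-fold, 0.754 to 0.927), and ZBTB4, a zinc finger reader, was at 4.15 and 3.78 RPKM. MBD3, a NuRD subunit that overlaps a clone-named gene with reads, had a fold of 1.08 (1.03 to 1.13), and MBD2, the NuRD subunit that binds methylated DNA, 1.07 (0.972 to 1.18). Of the CXXC proteins and relatives, which bind unmethylated CpG, 7 of 8 were expressed, 6 higher and 1 lower, and their median was 0.045. Over all expressed protein-coding genes 43.5% were higher and 56.5% lower, and no list here or below was tested against these shares. KMT2A, a histone H3 lysine methyltransferase, had a fold of 1.2 (1.10 to 1.32) and FBXL19 1.04 (0.978 to 1.11). CXXC5 was at 2.87 and 2.89 RPKM. KDM2A, a histone demethylase, was the 1 lower member, at 0.905 (0.833 to 0.984).

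Genes that act with or after the TET enzymes were read next. Of 8 TET partners in the table, 7 were expressed, 4 higher and 3 lower, and the median log2 ratio was 0.0047. OGT, which binds TET proteins and attaches O-linked N-acetylglucosamine to proteins, was at 7.06 RPKM (WT) and 5.34 (S435D), a fold of 0.757 (0.702 to 0.816). HCFC1, a chromatin cofactor that OGT modifies, had 1.14 (1.09 to 1.19). DCAF1 and DDB1, of the ubiquitin ligase that modifies TET proteins, had 0.969 (0.903 to 1.04) and 1.04 (1.01 to 1.07). DCAF1 overlaps RBM15B. Base excision genes were expressed for 13 of 14, 3 higher and 10 lower, and their median was -0.068. Of all expressed protein-coding genes 56.5% were lower, and the difference from that share was not tested. The glycosylases NEIL2 and NEIL3 had 0.887 (0.706 to 1.11) and 0.90 (0.770 to 1.05), the uracil glycosylase SMUG1 1.11 (0.944 to 1.30) and the polymerase POLB 1.05 (0.890 to 1.24). TDG, named after its values were seen, had 862 reads in each library (fold 0.951, 0.864 to 1.05).

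Enzymes of alpha-ketoglutarate and of the methyl donor S-adenosylmethionine were also listed. Both lists mix enzymes that make a metabolite with enzymes that use it, so their counts and medians do not measure supply. Of 14 expressed alpha-ketoglutarate genes, 5 were higher and 9 lower (median log2 ratio -0.053), where 56.5% of all expressed protein-coding genes were lower. GLUD1, glutamate dehydrogenase, which has near-identical copies and overlaps FAM35A, had a fold of 0.875 (0.817 to 0.936). BCAT1, a branched-chain aminotransferase that consumes alpha-ketoglutarate, had 1.14 (1.05 to 1.23) and IDH1, the cytosolic isocitrate dehydrogenase, 1.10 (0.986 to 1.22). Of 13 expressed methionine and folate genes, 6 were higher and 7 lower (median -0.0094, with a sign that turned under each scaling tried). MTHFD2, a mitochondrial folate enzyme, had 0.849 (0.798 to 0.902) and MAT2A, the enzyme that makes S-adenosylmethionine, 0.908 (0.853 to 0.967). MTHFD2 shares 27.2% of its exon bases with SLC4A5 and 6.06% with a clone-named gene of 1852 reads (WT). MAT2A shares 12.4% with GGCX. SHMT2, serine hydroxymethyltransferase of mitochondria, had 1.12 (1.08 to 1.16) and AHCY, which clears the product S-adenosylhomocysteine, 1.06 (1.01 to 1.11).

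**Figure D4:**
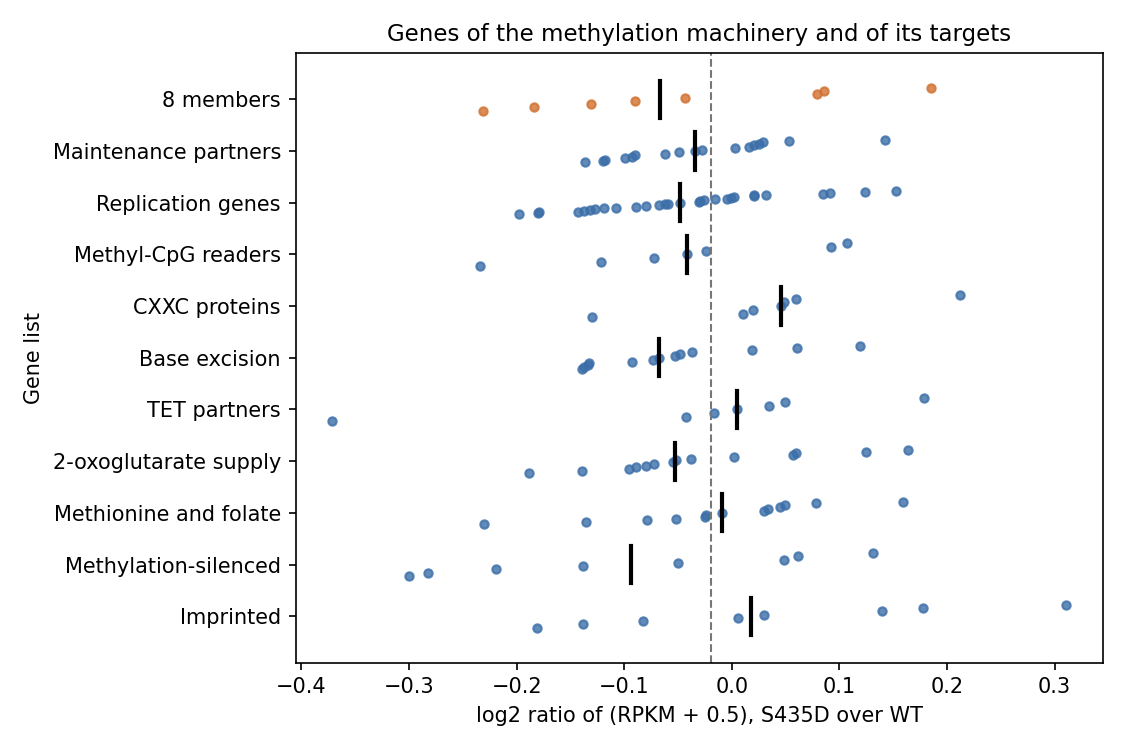
log2 ratio of (RPKM plus 0.5), S435D over WT, for the 8 genes (orange) and for the expressed genes of each list (blue); black bars are medians, the dashed line is the median of expressed genes, and points within a list are spread vertically in order of their ratio. The 10 list medians lie between -0.094 and 0.045, and OGT is the point farthest from 0.

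Genes known to be silenced by promoter methylation in many cells were mostly low in both libraries. The 25 germline genes, normally held silent in somatic cells by methylation, were all below 1 RPKM, with 69 reads (WT) and 65 (S435D) over the whole list. SYCP3, of the synaptonemal complex, accounted for 36 and 38 of them, SSX1 for 4 and 3, and PAGE1 for 1 and 2. For 8 of the 25 neither library had a read (0 allows up to 3). Several belong to families of close copies, which leaves single members uncertain. Of 17 tumour genes often silenced by promoter methylation, 8 were expressed, 3 higher and 5 lower (median log2 ratio -0.094). The median turned to 0.055 among genes averaging 5 RPKM or more and was 0 without a filter. SFRP1, a WNT antagonist, had 127 and 98 reads (fold 0.734, 0.558 to 0.963), and DAPK1, a death-associated kinase, 335 and 271 (0.769, 0.653 to 0.906). GSTP1, a glutathione transferase, was at 118 and 129 RPKM (1.10, 1.05 to 1.14), CDKN2A, a locus of cell cycle inhibitors, at 80.2 and 83.7 RPKM, and CCND2, a D-type cyclin, at 6.40 and 6.17. MGMT, named after its values were seen, had 0 reads (WT) and 1 (S435D).

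Imprinted genes, whose expression from 1 parental copy rests on methylation, were expressed for 8 of 20, 5 higher and 3 lower (median log2 ratio 0.018, or 0.10 among genes averaging 5 RPKM or more). Among all expressed protein-coding genes 43.5% were higher, and the difference from that share was not tested. IGF2, a fetal growth factor that shares 15.9% of its exon bases with the readthrough gene INS-IGF2, had 1501 reads (WT) and 1975 (S435D), or 10.7 and 13.4 RPKM (fold 1.25, 1.17 to 1.34). It was the only expressed member of the list past 1.2-fold. PHLDA2, a growth inhibitor of the placenta, was at 20.6 and 23.4 RPKM (1.13, 0.997 to 1.29), and GNAS, the stimulatory G protein subunit, at 36.3 and 37.1. PLAGL1, a zinc finger factor, had 0.869 (0.789 to 0.956) and GRB10, an adaptor of the insulin receptor, 0.891 (0.790 to 1.0). Allelic expression cannot be read from gene totals.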

How the data were processed

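The authors deposited a single table of RPKM, reads per kilobase of summed exon length per 1000000 assigned reads, with gene positions and lengths, per the file headers. Aligner, counter, strand setting, build and annotation: not given in the sources used here. Spans of all 8 members equalled those of GENCODE 29 (GRCh38). Whole reads were recovered from RPKM times length: 100% of values above 0 came out whole within 0.01 reads, with 22366506 and 23520828 reads in total. A read on a gene of 10 kb equals 0.00447 and 0.00425 RPKM.

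No pseudocount enters the folds, which divide RPKM by RPKM and carry Clopper-Pearson intervals conditional on the summed reads, and ratios of ratios have exact conditional intervals from the 2 by 2 table of reads. Intervals for levels are exact Poisson intervals. Log2 ratios use a pseudocount of 0.5 RPKM, which understates differences of low genes. Protein-coding genes were matched by symbol to GENCODE 29 or RefSeq, and expressed means an average of 1 RPKM or more. In each list the 2 highest and 2 lowest expressed members were named, with OGT, SIK1, cell markers and, in silent lists, the 3 most abundant; other genes named are marked as such. A gene that this rule names is not reported here. The members and lists were chosen with earlier results of these data known. Without replicates no count test was possible. The procedure was checked on simulated data. Intervals came from SciPy 1.17.1 under Python 3.11.15, with pandas 2.3.3 and numpy 2.4.6 for tables and matplotlib 3.10.9 for plots.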

Additional observations from a re-analysis of the deposited data

How the results depend on the processing

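The folds of the 8 members stayed within their counting intervals under a trimmed mean of log ratios, centring on the median of expressed genes and scaling without mitochondrial reads, which moved all log2 ratios by 0.032, 0.019 and 0.013. Under each of these the intervals of DNMT1 and TET1 stayed above 1 and those of UHRF1 and DNMT3A below 1. The count of members 2-fold apart stayed at 0 under these scalings and under a 1.5-fold rule, and was 1 under a 1.2-fold rule. That member was DNMT3A in RPKM as deposited, TET1 under the trimmed mean (fold 1.21) and under centring (1.2), and none without mitochondrial reads.

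Of 70 list medians recomputed, 5 changed sign. The methionine and folate median became 0.020 with the trimmed mean, 0.0087 when centred and 0.0022 without mitochondrial reads. Restricted to genes averaging 5 RPKM or more, the median of the methyl-CpG readers became 0.034 and that of the tumour genes 0.055, with fewer genes in each. Without changing sign, 2 more moved: the imprinted median to 0.10 at that filter and the tumour gene median to 0 with no filter. The median of the 8 members kept its sign under the pseudocounts, filters and scalings tried. A setting that kept only genes without an overlapping gene repeats the folds of DNMT3A, DNMT3B and UHRF1 unchanged, so it checks nothing further. For the other 5 members this setting gave no value. Of those, only DNMT1 shared exon bases with another gene (69, with S1PR2). No paired analysis was possible because each group has 1 library, and no replicate could be left out. Per longest coding transcript, added after seeing the data, 6 of 8 levels and 8 of 9 pair ratios moved, and ratios of ratios cannot. The intervals of UHRF2, TET2, TET3 and DNMT3B contain 1. UHRF2 and TET2 rest on the fewest reads. TET3 had 280 reads in the WT library, where TET1, with an interval above 1, had 282. DNMT3B had 1835. Whether read number limits any of them was not tested.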
